A study of Homo sapiens with 6 samples.

Results

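The genes described here are HNF4A, HNF4G, PAX8, PAX2, CDH16, ACMSD, ACSM2B and EMX2, 8 of the 23228 genes in the count tables. They were taken by name. They had been picked with the SMIP34 response of these same libraries in view, so their response is given as a description and supports nothing. No p-values are printed for them, and which of them passed a threshold is likewise only a description. Their working name also held HNF1, but none of the 8 is an HNF1 gene, and EMX2 had no read in any library. They are therefore called here the HNF4, PAX and tubular-type genes.

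The libraries came from HEC-1-A, a human endometrial adenocarcinoma cell line grown in McCoy's 5A medium with fetal bovine serum. There were 3 control libraries and 3 libraries from cells that had received 20 µM SMIP34 for 24 h. SMIP34 is a small molecule that binds PELP1, a scaffold protein that works with nuclear receptors and, in the Rix1 complex, in ribosome assembly. The comparison asks which transcripts differ after that treatment. The control labels name only the medium, whereas the methods of the study describe a vehicle. All libraries came from the same established line, and nothing in the labels says that the replicates were separate cultures, so the p-values measure the spread between these samples, which may be technical.

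PAX8, PAX2 and EMX2 act early in the nephric and Müllerian ducts, from which the tubules of the kidney and the epithelium of the oviduct and uterus arise. PAX8 remains on in the adult epithelium of both organs and is used by pathologists to mark their carcinomas. The HNF1 and HNF4 factors drive genes of transport and metabolism in the proximal tubule, liver and gut. CDH16, known as kidney-specific cadherin, and the enzymes ACMSD and ACSM2B are found mainly in kidney, and the enzymes also in liver.

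Total estimated counts on genes were 19562711 to 22014835 per library, and 13408 genes passed the filter on low counts and were tested. Levels are CPM, counts divided by library size and scaled by the TMM method, with scaling factors between 0.988 and 1.01. At this depth a gene without reads may still lie at up to 0.137 to 0.155 CPM, the level of 3 counts in the libraries. Such limits cover counting error only. Epithelial identity was clear in every library: KRT7, a keratin of glandular epithelium, had 1727 ± 40.7 CPM in control and 1698 ± 46.2 CPM in SMIP34 libraries (SD, n = 3 each), and 16 of 20 endometrial epithelial markers were tested. The hormone receptor genes ESR1 and PGR, which mark normal endometrium, were nearly absent, with a mean of at most 0.0172 CPM in either group. The summed level of 9 stromal markers ranged from 5.20 to 6.59 CPM in control and from 6.38 to 6.70 CPM in SMIP34 libraries, with PDGFRA, LUM and HAND2 at 0. For 8 immune markers these sums were 2.12 to 3.14 and 3.65 to 4.35 CPM, with CD3E and MS4A1 at 0 and PTPRC without a read in all libraries but SMIP34 replicate 2. Sums of 6 endothelial markers were 0.337 to 0.773 and 0.231 to 0.693 CPM. Among these markers COL1A1 (2.96 and 4.19 CPM) and CSF1R (1.32 and 2.13 CPM) were higher with SMIP34 at adjusted p-values of 0.0151 and 0.0323, and neither passed without control replicate 2 or without SMIP34 replicate 3. The part of other cells in the results was not tested. In a bulk library, fewer cells of a type and less RNA per cell cannot be told apart.

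Among the 8 genes, PAX8 was by far the most abundant. Per kilobase of exon, the control level was 73.8 ± 0.962 CPM for PAX8, 22.3 ± 0.537 for CDH16, 6.12 ± 0.413 for PAX2, 4.12 ± 0.371 for HNF4G, 3.47 ± 0.194 for ACMSD, 1.14 ± 0.164 for ACSM2B and 0.513 ± 0.0846 for HNF4A (SD, n = 3 each). HNF4G and ACMSD were close neighbours in that order, with a lowest HNF4G value of 3.75 and a highest ACMSD value of 3.70 CPM per kilobase. The other neighbours were further apart than their spread. In SMIP34 libraries ACSM2B, at 0.371 ± 0.0561 CPM per kilobase, and HNF4A, at 0.389 ± 0.0846, were no longer separated by theirs. In each pair of related factors 1 gene prevailed: the level per kilobase of PAX8 was 12.1 times that of PAX2 in control (11.5 to 12.8 over the libraries), and HNF4G stood at 8.15 times HNF4A (6.86 to 8.90).

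**Figure D1:**
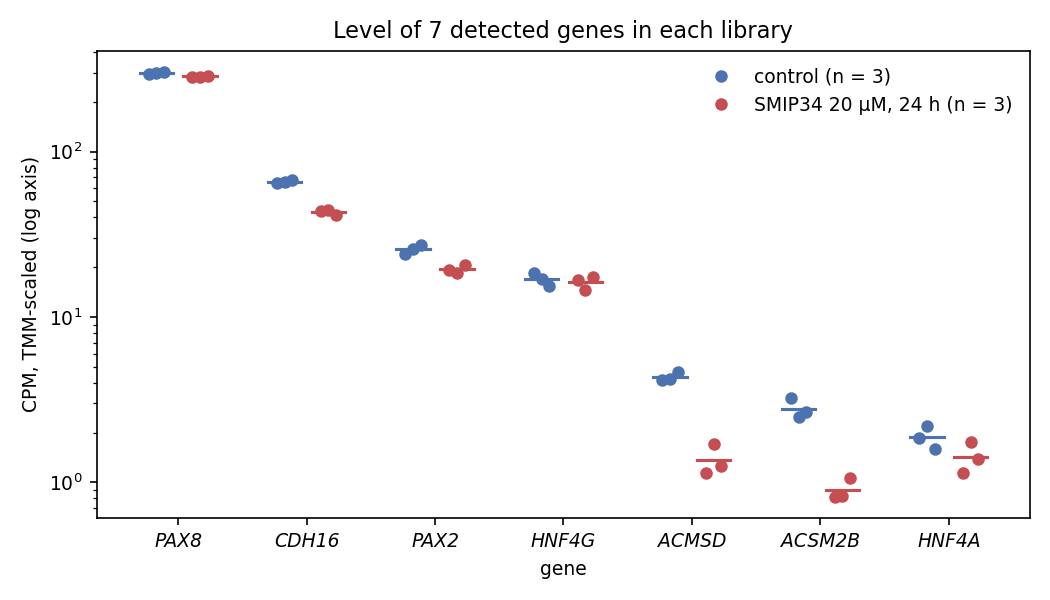
TMM-scaled CPM on a log axis for the 7 genes with reads, in 3 control (blue) and 3 SMIP34 (red) libraries; points are libraries and short lines are group means. The red points of ACMSD, between 1.14 and 1.71 CPM, and of ACSM2B, between 0.820 and 1.06 CPM, lie well below the blue ones, whereas those of HNF4A and HNF4G overlap with control.

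PAX8, a paired box factor of the thyroid, kidney and Müllerian epithelium, lies at chr2:113973574-114036498 on the minus strand (hg19) with 12 exons. It measured 295, 299 and 303 CPM in control replicates 1 to 3 and 283, 284 and 288 CPM in the SMIP34 libraries. All treated libraries were below all controls, but by little: the SMIP34 level was 0.952 times control (95% interval 0.916 to 0.990), a log2 fold change of -0.07 (SE 0.027). PAX2, its relative of the ureteric bud and collecting duct (chr10:102505468-102589698, plus strand), gave 24.0, 25.8 and 27.4 CPM in control and 19.4, 18.4 and 20.7 CPM with SMIP34. The PAX2 groups did not overlap, and the ratio was 0.756 (95% interval 0.686 to 0.833), with a log2 fold change of -0.40 (SE 0.068). No 50-base window of exon sequence is shared between PAX8 and PAX2. The ratio of PAX8 to PAX2 per kilobase thus went from 12.1 in control to 15.2 with SMIP34 (14.5 to 16.0 over the libraries).

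HNF4A and HNF4G are nuclear receptors that bind the same DNA element as dimers. HNF4A (chr20:42984441-43060030, plus strand) was scarce, with 1.85, 2.21 and 1.59 CPM in control and 1.14, 1.76 and 1.39 CPM with SMIP34. These values rest on 36, 48 and 33 counts against 25, 38 and 30, and the groups overlapped. Its log2 fold change of -0.40 equalled that of PAX2, but with an SE of 0.24 the 95% interval of the ratio, 0.537 to 1.06, included no difference. HNF4G (chr8:76452203-76479061, plus strand) measured 18.4, 16.9 and 15.3 CPM in control and 16.6, 14.6 and 17.5 CPM with SMIP34. Its groups overlapped as well, with a ratio of 0.965 (95% interval 0.858 to 1.09) and a log2 fold change of -0.05 (SE 0.083). The latter turned to 0.013 without control replicate 1 and to 0.020 without SMIP34 replicate 2. EMX2, a homeobox gene needed for the urogenital ducts (chr10:119301956-119309057, plus strand), had 0 counts in all 6 libraries, as had its antisense transcript EMX2OS.

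CDH16 (chr16:66942025-66952887, minus strand, 18 exons) encodes a cadherin of the basolateral membrane of tubule cells. It gave 64.7, 65.2 and 67.6 CPM in control and 43.7, 44.1 and 41.2 CPM with SMIP34. The groups were far apart relative to their SDs of 1.59 and 1.58 CPM. The SMIP34 level was 0.653 times control (95% interval 0.613 to 0.695; log2 fold change -0.61, SE 0.044). The ratio of PAX8 to CDH16 per kilobase went from 3.31 (3.27 to 3.34 over the control libraries) to 4.83 (4.68 to 5.10).

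The largest differences among the 8 genes were those of the metabolic enzymes. ACMSD turns an intermediate of tryptophan breakdown away from the making of quinolinate and NAD (chr2:135596186-135659602, plus strand). It measured 4.17, 4.23 and 4.62 CPM in control and 1.14, 1.71 and 1.25 CPM with SMIP34, from 81, 92 and 96 counts against 25, 37 and 27. Even the highest treated library was far below the lowest control. The ratio was 0.315 (95% interval 0.239 to 0.415; log2 fold change -1.67, SE 0.19), which was the 6th most negative fold change of the 13408 genes tested. ACSM2B, a mitochondrial enzyme that joins medium-chain and aromatic acids to coenzyme A (chr16:20548083-20587695, minus strand), followed at the 7th place. Its levels were 3.25, 2.48 and 2.65 CPM in control and 0.820, 0.832 and 1.06 CPM with SMIP34, a ratio of 0.327 (95% interval 0.233 to 0.459; log2 fold change -1.61, SE 0.24). These enzymes are scarce transcripts, and CDH16, at the 252nd place, had the narrowest interval of the 3.

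ACSM2B has a close copy, ACSM2A, on the other strand of the same region (chr16:20462859-20498991). Of 1720 windows of 50 bases in the exons of ACSM2B, 815 (47.4%) occur unchanged in ACSM2A. Reads from such windows cannot be told apart between the genes, so the separate values of the pair are uncertain. Whether they were divided between the genes or removed by the limit on mapping quality was not tested. ACSM2A had 1.39, 1.20 and 0.962 CPM in control and 0.319, 0.139 and 0.508 CPM with SMIP34, and it fell by 1.85 on the log2 scale (SE 0.39, adjusted p = 0.000524). The level per kilobase of ACSM2B was 2.90 times that of ACSM2A in control and 4.32 times with SMIP34, where it ranged from 2.54 to 7.29 over the libraries.

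Over all genes tested, 34.6% passed an adjusted p of 0.05 (17.4% higher and 17.2% lower with SMIP34), and 3.31% also exceeded an absolute log2 fold change of 0.5 (1.44% higher and 1.87% lower). Of the 7 genes tested here, 5 passed the former rule, all of them lower with SMIP34 (PAX8, PAX2, CDH16, ACMSD and ACSM2B), and 3 passed both (CDH16, ACMSD and ACSM2B). PAX8 was just inside the former rule and no longer passed in 10 of 15 alternative settings, including those without any 1 of the 6 libraries, where its log2 fold change lay between -0.08 and -0.06. The other 4 passed in all 15. The groups of 5 did not overlap, against 44.5% over the whole table (21.9% with SMIP34 lower). The 7 had a median log2 fold change of -0.40, beside -0.0022 over the whole table. Since the genes were picked on this contrast, nothing is read from these counts.

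**Figure D2:**
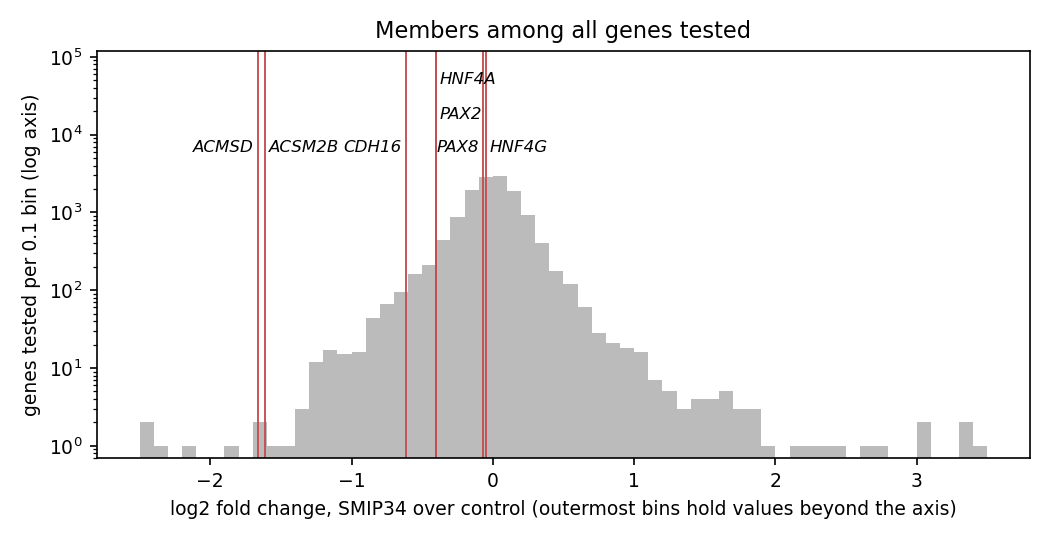
Histogram of log2 fold changes (SMIP34 over control) of the 13408 genes tested, in bins of 0.1 with the number of genes on a log axis; red lines mark the 7 tested genes described here. ACMSD and ACSM2B stand in the sparse lower tail at -1.67 and -1.61, while PAX8 and HNF4G stand near 0, and HNF4A and PAX2 share a place at -0.40.

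Some transcripts beside or opposite the 8 genes differed, in both directions, and others did not pass. Over all genes tested 34.6% passed the adjusted p. RRAD, a small GTP-binding protein gene on the same strand 2.69 kb from CDH16, rose from 0.470 ± 0.202 to 1.44 ± 0.113 CPM (log2 fold change 1.61, SE 0.33, adjusted p = 0.000435) where CDH16 was lower. RRAD was scarce and had no adjusted p in DESeq2. On the other side of CDH16, the phosphatase gene PDP2 rose by 0.22 on the log2 scale (adjusted p = 0.00699). PDP2 is outside the rule for named genes and was named after its values were seen. CCNT2, a cyclin gene 16.8 kb from ACMSD, rose by 0.13 (adjusted p = 0.0415), a call that was lost in 8 of 15 alternative settings, among them those without control replicate 1 or 2 and without SMIP34 replicate 2 or 3. The transcript LOC100129961, which overlaps ACMSD on the other strand, was at 1.17 CPM in control and 1.13 CPM with SMIP34 (log2 fold change -0.03, SE 0.28, adjusted p = 0.94). LOC654433, antisense to PAX8, was too low to test, at 0.212 and 0.353 CPM. PSD4, 12.9 kb from PAX8, fell by 0.34 (adjusted p = 0.000307). RRAD, whose mean was under 1 CPM, CCNT2 and PSD4 were likewise named after their values were seen. So were the remaining nearest genes that were tested, apart from ACSM2A. Of them FAM178A beside PAX2 (adjusted p = 0.0367 in edgeR) and PDZD8 beside EMX2 (0.0154) rose. TTPAL beside HNF4A (0.1), CBWD2 beside PAX8 (0.446), HIF1AN beside PAX2 (0.433), ACSM1 beside ACSM2B (0.236) and RAB11FIP2 beside EMX2 (0.797) did not pass.

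The genes most like ACMSD and CDH16 were found by the root mean square distance, over the 6 libraries, between their log2 CPM relative to the control mean, among the 12598 candidates that reached a mean of 1 CPM. The nearest to ACMSD were KRT25, a hair follicle keratin that had 6.41 CPM in control and 2.73 CPM with SMIP34 (distance 0.356), the renal phosphate and urate transporter SLC17A1 (distance 0.365) and the amino acid transporter SLC7A8 (distance 0.374). The nearest to CDH16 were FAM149A (58.0 and 38.2 CPM, distance 0.031), the amino acid transporter SLC7A5 (203 and 134 CPM, distance 0.038) and the forkhead factor FOXC1 (70.1 and 45.4 CPM, distance 0.043). The distances around ACMSD were the longer ones, and ACMSD and its neighbours were also the scarcer transcripts.

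PCBD1, which holds HNF1 dimers together and was the most abundant of the partners per kilobase (147 ± 4.15 CPM), fell from 148 ± 4.18 to 128 ± 1.52 CPM (log2 fold change -0.21, SE 0.032, adjusted p = 1.77e-05).

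Of 20 partners and coregulators of the HNF1 and HNF4 factors, 15 were tested: 5 fell (among them PCBD1, PCBD2, NR2F2 and RXRA), 3 rose (EP300, MED1 and PPARA) and 7 did not pass. Over all genes tested 17.2% fell and 17.4% rose. None exceeded a log2 fold change of 0.5 in either direction with an adjusted p under 0.05 in edgeR, DESeq2 or limma voom, and the median was -0.10. All of these but PCBD1 lie outside the rule for named genes and were named after their values were seen. The PPARA call was lost in 6 of 15 alternative settings, among them those without control replicate 1 or 2 and without SMIP34 replicate 1 or 2, and its log2 fold change turned to -0.0033 with offsets on gene length, under which MED1 did not pass either. RXRA did not pass with DESeq2, with library size as the only scaling or without SMIP34 replicate 1. The acetyltransferase EP300 rose the most, from 69.8 ± 2.78 to 90.4 ± 4.55 CPM (log2 fold change 0.37, SE 0.042, adjusted p = 9.8e-08). NR2F2, an orphan receptor that can compete with HNF4 for its element, fell from 54.0 ± 1.80 to 43.2 ± 0.643 CPM (log2 fold change -0.32, SE 0.045, adjusted p = 3.14e-06).

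Many genes known from the segments of the nephron, of transport, metabolism and other roles, were lower with SMIP34. Of 61 such genes, 51 had a count and 24 were tested. Of these, 16 fell and 0 rose (66.7% lower, against 17.2% of all genes tested), and 11 fell beyond the fold limit as well (45.8%, against 1.87%). At an unadjusted p under 0.05, 1 was higher in edgeR's quasi-likelihood test and in limma voom and 0 in DESeq2. At the adjusted p DESeq2 called 14 lower, and 9 past the fold limit as well. Without SMIP34 replicate 2, 15 fell and 7 also exceeded the fold limit. In 4 alternatives 1 gene rose at the adjusted p: with library size as the only scaling, with offsets on gene length, and without control replicate 1 or 2. Over the 24 the median was -0.51 on the log2 scale, and 22 were below 0. This list was written with earlier results of these data known, so the shares are a description. No count was found for 10 of the 61, among them the organic anion transporters SLC22A6 and SLC22A8 of the proximal tubule and the potassium channel KCNJ1 of the loop of Henle, and UMOD, uromodulin, had reads in control replicate 1 alone (0.103 CPM).

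The most abundant was SPP1, osteopontin, a secreted phosphoprotein of the tubule and of many carcinomas. It gave 2686 ± 54.6 CPM in control and 1891 ± 30.4 CPM with SMIP34 (log2 fold change -0.51, SE 0.025, adjusted p = 1.09e-14). Among the largest fold changes past both thresholds were those of SLC17A1, which fell from 1.84 ± 0.136 to 0.798 ± 0.167 CPM (log2 fold change -1.20, SE 0.27, adjusted p = 0.000885) and of PKHD1, fibrocystin of the primary cilium, which fell from 4.01 ± 0.162 to 2.22 ± 0.338 CPM (log2 fold change -0.85, SE 0.17, adjusted p = 0.000389). Of the others past both thresholds, 7 were named after their values were seen. They were TMEM27, a partner of amino acid transporters that fell from 13.4 to 7.52 CPM, the cystine transporter subunit SLC3A1 (22.6 to 12.8 CPM), the sodium pump subunit FXYD2 (349 to 218 CPM), the brush border scaffold PDZK1 (61.3 to 39.5 CPM), the cadherin CDH6 of the early nephron (28.2 to 19.5 CPM), SLC17A3 (4.34 to 3.05 CPM) and the small heat shock protein CRYAB (4.11 to 2.90 CPM), with adjusted p-values from 4.38e-14 for FXYD2 to 0.0219 for CRYAB. CRYAB no longer passed without control replicate 3 (log2 fold change -0.37) or without SMIP34 replicate 2, and SLC17A3 without control replicate 3 (-0.39) or without SMIP34 replicate 1.

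The summed level of the 61 genes was 3442 to 3597 CPM in control and 2452 to 2524 CPM in SMIP34 libraries, most of it SPP1. Without SPP1 it was 804 to 851 CPM and 595 to 608 CPM, and without SPP1 and FXYD2 it was 476 to 485 CPM and 377 to 389 CPM. The groups were apart in each sum. Fructokinase, KHK, named after its values were seen, was among the 8 genes that did not pass, at 21.5 ± 2.16 CPM in control and 24.2 ± 0.413 CPM with SMIP34 (log2 fold change 0.17, adjusted p = 0.0588).

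**Figure D3:**
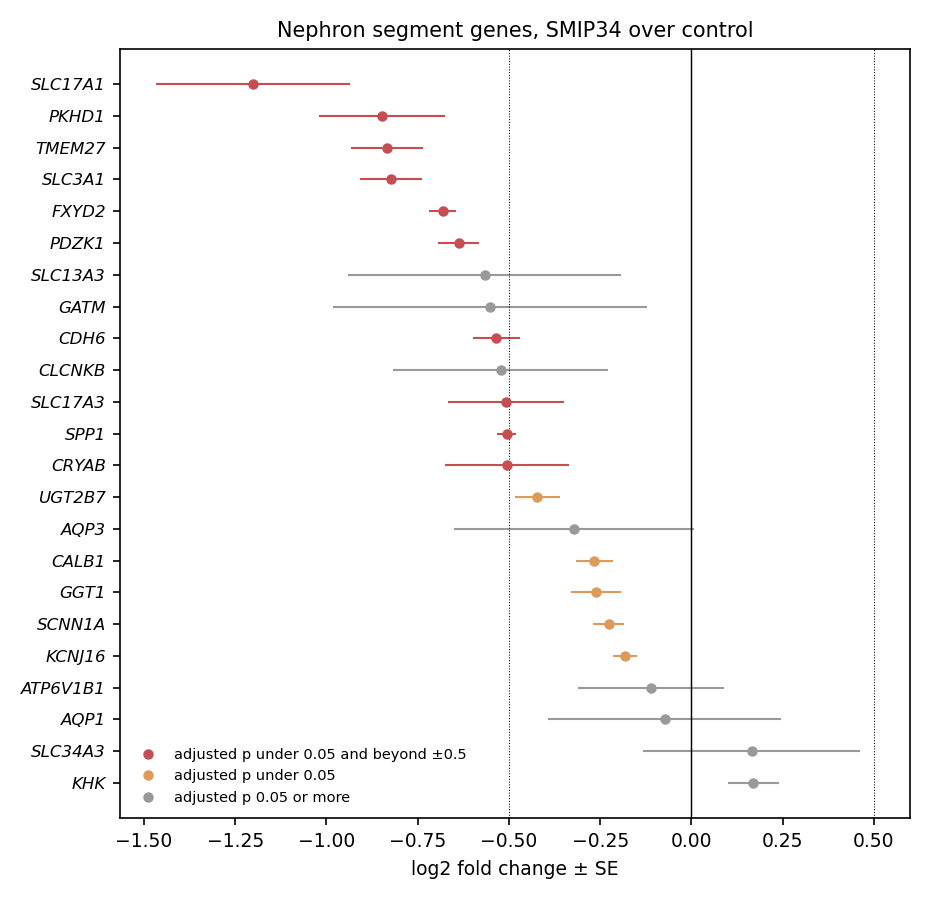
Log2 fold change with SE (SMIP34 over control, 3 libraries each) of nephron genes tested; red marks genes past both thresholds, orange those past the adjusted p alone and grey those that did not pass, and dotted lines stand at -0.5 and 0.5. All coloured points lie left of 0, from SLC17A1 at -1.20 to KCNJ16 at -0.18.

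Promoters were searched for exact matches on both strands, from 250 bases before to 50 bases after the start that RefSeq gives (GRCh38.p14), to HNF1 (GTTAATNAT) and HNF4 (CAAAGTCCA) motifs, to shorter or looser forms of these (GTTAAT and CAAAGNNCA, which the longer motifs contain) and to the TATA box (TATAAA). For each listed gene only the first promoter given was searched, so other starts of the same gene were not. Of the 8 genes the table held HNF4A, PAX8, PAX2 and EMX2, and none of the promoters searched for them had a match to any of the 5. That of PAX2 ended at chr10:102495202 (hg19), upstream of the counted gene, which begins at 102505468. HNF4G, CDH16, ACMSD and ACSM2B were not in it. The HNF1 motif occurred in 278 of 35116 promoters (0.792%) and in 69 of 13445 promoters of tested genes (0.513%). These shares count every promoter of a gene, whereas the lists below count 1 promoter per gene, so the units differ. Of the 24 nephron genes tested 14 were in the table, and 3 had the HNF1 motif in the promoter searched (PKHD1, TMEM27 and SPP1). Of the 11 nephron genes that fell past both thresholds only 6 were in the table, and these 3 were among them. Of the 13 others tested 8 were in it, and 0 of those had a match. The list was written with earlier results of these data known, so nothing is read from this split. Among the partners, PCBD1 had the HNF1 motif, and among the HNF4A targets FGA, the fibrinogen alpha chain, which did not pass. The HNF4 motif occurred in 0.384% of all promoters and was found in those of PDZK1, 5 bases before the start, and of the immune marker CD68, 14 bases after it. The promoters of PKHD1, TMEM27, SPP1, PCBD1 and FGA are shown. Of the promoters searched for tested genes in the lists, they are those that hold the HNF1 motif. Their 250 bases before the start, 5′ to 3′ on the strand of the gene, are given with matches in capitals. In hg19 they lie at chr6:51952412-51952661 (PKHD1, minus strand), chrX:15682929-15683178 (TMEM27, minus strand), chr4:88896616-88896865 (SPP1, plus strand), chr10:72648323-72648572 (PCBD1, minus strand) and chr4:155511895-155512144 (FGA, minus strand).
PKHD1: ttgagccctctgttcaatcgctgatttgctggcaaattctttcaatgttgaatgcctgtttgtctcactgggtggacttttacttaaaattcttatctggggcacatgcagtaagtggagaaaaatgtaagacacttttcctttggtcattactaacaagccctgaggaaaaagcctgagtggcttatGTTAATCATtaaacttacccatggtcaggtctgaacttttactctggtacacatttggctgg
TMEM27: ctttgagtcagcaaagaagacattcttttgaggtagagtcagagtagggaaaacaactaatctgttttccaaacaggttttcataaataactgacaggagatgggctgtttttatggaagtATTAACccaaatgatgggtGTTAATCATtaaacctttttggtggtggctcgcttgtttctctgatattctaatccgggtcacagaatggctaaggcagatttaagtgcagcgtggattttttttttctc
SPP1: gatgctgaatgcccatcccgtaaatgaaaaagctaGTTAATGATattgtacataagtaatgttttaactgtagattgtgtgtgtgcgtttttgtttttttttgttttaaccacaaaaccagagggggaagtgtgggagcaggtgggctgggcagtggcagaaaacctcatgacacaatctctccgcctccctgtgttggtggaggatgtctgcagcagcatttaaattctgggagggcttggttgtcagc
PCBD1: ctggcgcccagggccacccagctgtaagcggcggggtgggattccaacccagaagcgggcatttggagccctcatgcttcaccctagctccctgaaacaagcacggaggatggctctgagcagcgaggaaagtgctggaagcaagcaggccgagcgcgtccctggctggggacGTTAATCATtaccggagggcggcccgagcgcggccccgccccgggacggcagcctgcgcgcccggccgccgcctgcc
FGA: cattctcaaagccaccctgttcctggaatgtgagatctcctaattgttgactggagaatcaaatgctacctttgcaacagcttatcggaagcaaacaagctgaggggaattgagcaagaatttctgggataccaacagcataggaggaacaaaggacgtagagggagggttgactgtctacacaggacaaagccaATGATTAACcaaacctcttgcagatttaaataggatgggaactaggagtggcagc
The motif begins 62 bases before the start in PKHD1, 110 in TMEM27, 215 in SPP1, 77 in PCBD1 and 55 in FGA. PKHD1, TMEM27 and PCBD1 have GTTAATCAT and SPP1 has GTTAATGAT, while FGA has the match on the other strand, read here as ATGATTAAC. TMEM27 also has the short form on the other strand, 129 bases before the start. A match in these letters is a description of the sequence and not of binding.

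Genes known from liver and gut as targets of HNF4A were mostly silent. Of 38, 30 had a count and 10 were tested, of which 5 fell and 0 rose, and 3 fell past the fold limit (over all genes tested 17.2% fell, 17.4% rose and 1.87% fell past that limit). None was higher at an unadjusted p under 0.05 in edgeR, DESeq2 or limma voom. Their median log2 fold change was -0.32. FGB, the fibrinogen beta chain, fell from 139, 139 and 133 CPM to 80.1, 82.3 and 79.0 CPM (log2 fold change -0.77, SE 0.035, adjusted p = 1.89e-15). AMBP, the precursor of bikunin, fell from 15.7 ± 1.47 to 10.4 ± 0.573 CPM (log2 fold change -0.59, SE 0.089, adjusted p = 1.05e-05). FGG, the gamma chain, was scarce and fell from 0.819 ± 0.129 to 0.385 ± 0.256 CPM (log2 fold change -1.09, SE 0.42, adjusted p = 0.0443), but it did not pass when any library other than SMIP34 replicate 2 was left out, and over the alternatives its log2 fold change ranged from -1.68 to -0.69. FGA, the alpha chain, did not pass, at 1.29 and 0.843 CPM (adjusted p = 0.139). ALDH2, the mitochondrial aldehyde dehydrogenase and the most abundant of the list per kilobase (61.4 ± 0.391 CPM), fell by 0.13 on the log2 scale (SE 0.032, adjusted p = 0.00203). FGG and FGA were named after their values were seen. Of 7 hepatocyte markers, CPS1 and SERPINA1 were tested and neither passed, and albumin was at 0.157 CPM in control and 0.123 CPM with SMIP34.

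Several enzymes that act before ACMSD in its pathway had few or no reads, but not all of them. TDO2 and HAAO, the entry oxygenase and the enzyme that makes the substrate of ACMSD, had 0 counts, and the other entry enzyme IDO1 was at 0.0343 CPM in control. AFMID, which also acts before ACMSD, was at 38.4 ± 0.665 CPM in control and 38.8 ± 1.84 CPM with SMIP34. It was named after its values were seen. QPRT, which takes up the quinolinate that ACMSD prevents, was the most abundant per kilobase (91.4 ± 2.71 CPM) and did not pass (log2 fold change -0.08, SE 0.034, adjusted p = 0.0572). Of 20 genes from tryptophan to NAD, 12 were tested: 2 rose and 3 fell, beside 17.4% and 17.2% of all genes tested, and the median was 0.012. Without control replicate 2, 3 of the 12 passed in all. Both past the fold limit were lower. NMNAT2, an NAD-forming enzyme of neurons and some tumours, fell from 6.51 ± 0.186 to 4.48 ± 0.129 CPM (log2 fold change -0.54, SE 0.12, adjusted p = 0.00144), and AADAT, which diverts kynurenine to kynurenic acid, fell from 9.38 ± 1.05 to 6.50 ± 0.556 CPM (log2 fold change -0.52, SE 0.11, adjusted p = 0.000767). NAMPT, the main enzyme of NAD recycling, rose by 0.14 on the log2 scale (adjusted p = 0.00513), a call lost without control replicate 2, and was named after its value was seen.

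Beside ACSM2B, 22 genes of its family and of acyl-CoA handling were in the files and 12 were tested. Of these 7 fell and 1 rose, beside 17.2% and 17.4% of all genes tested, with a median log2 fold change of -0.15. ACSM2A and ACSL1 passed the fold limit. ACSL1, which activates long-chain fatty acids, fell from 141, 143 and 146 CPM to 97.7, 102 and 96.4 CPM (log2 fold change -0.54, SE 0.034, adjusted p = 1.42e-12). ACADVL, the first enzyme of long-chain beta-oxidation and the most abundant per kilobase (119 ± 3.21 CPM), did not pass (log2 fold change 0.02, adjusted p = 0.643). ACSL4, named after its value was seen, rose by 0.16 (adjusted p = 0.00242).

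**Figure D4:**
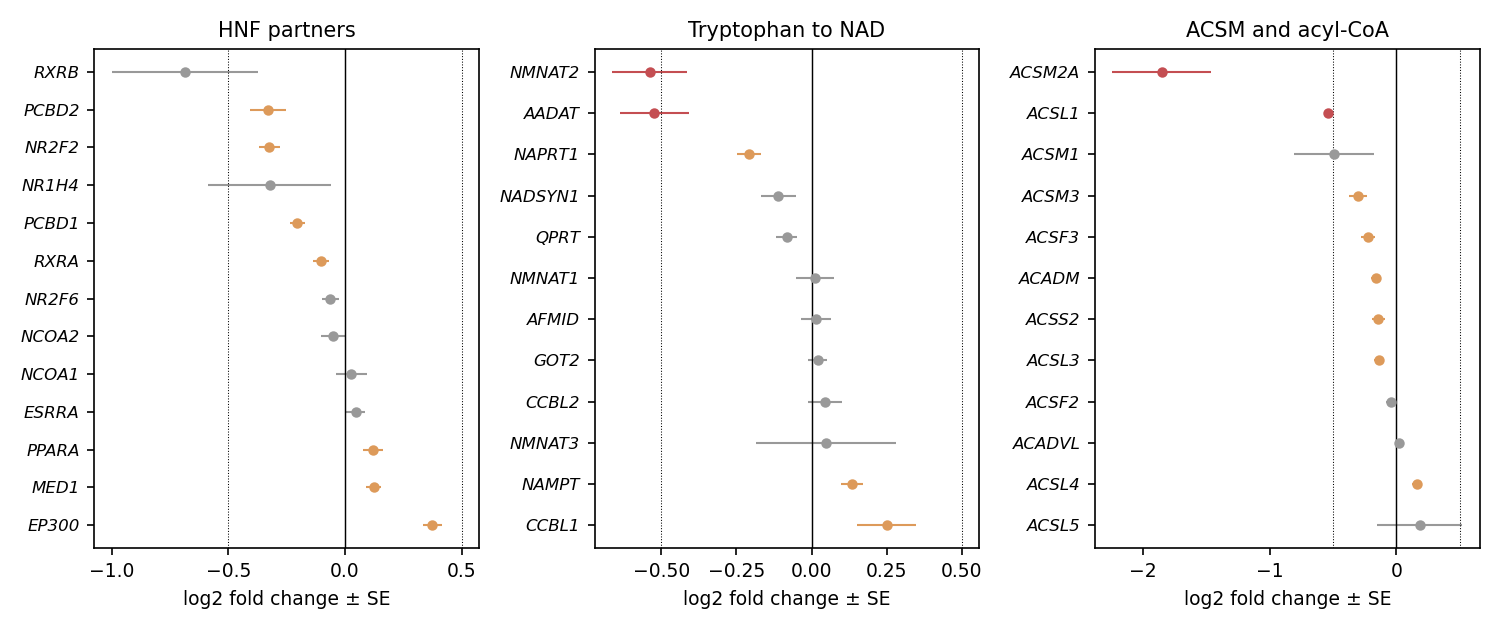
Log2 fold change with SE (SMIP34 over control, 3 libraries each) of genes tested in 3 lists; red marks genes past both thresholds, orange those past the adjusted p alone, grey those that did not pass, and dotted lines stand at -0.5 and 0.5. The HNF partners stay between the dotted lines where they passed, and ACSM2A stands apart at -1.85.

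Of 29 other factors of the renal and Müllerian ducts, 16 were tested. Of these 1 rose and 2 fell, where 17.4% and 17.2% of all genes tested did, and the median log2 fold change was 0.095. GATA2, a zinc finger factor of the urogenital tract, rose from 0.670, 0.920 and 0.914 CPM to 2.19, 1.90 and 1.71 CPM (log2 fold change 1.20, SE 0.26, adjusted p = 0.000783). WNT7A, a ligand that patterns the Müllerian duct and the most abundant per kilobase (33.8 ± 2.01 CPM), did not pass (log2 fold change 0.02, SE 0.045, adjusted p = 0.752). IRX3 and SALL1, named after their values were seen, fell by 0.23 and 0.15, and SALL1 did not pass without control replicate 3 or without SMIP34 replicate 1 or 2. LHX1, which acts with PAX8 and PAX2 in the nephric duct, was at 1.02 ± 0.355 CPM in control and 1.32 ± 0.461 CPM with SMIP34 (adjusted p = 0.378). Outside PAX8 and PAX2, PAX9 was the only member of the PAX family that was tested, at 5.70 ± 1.07 and 5.89 ± 0.896 CPM (adjusted p = 0.806).

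Of 23 cadherin genes other than CDH16 and CDH6, 5 were tested and 0 passed, where 34.6% of all genes tested did. At an unadjusted p under 0.05 there were also 0 in edgeR, DESeq2 or limma voom. CDH1, E-cadherin of epithelial junctions and the most abundant of them per kilobase (43.5 ± 1.22 CPM), was at 205, 208 and 216 CPM in control and 219, 212 and 215 CPM with SMIP34, with overlapping groups (log2 fold change 0.04, SE 0.030, adjusted p = 0.365). CDH2, CDH3 and CDHR3, named after their values were seen, were scarce, at 0.905, 0.829 and 0.886 CPM in control. With SEs from 0.33 to 0.38 on the log2 scale, their fold changes were poorly measured. The endometrial epithelial markers moved both ways, with 6 of 16 up and 3 down (17.4% and 17.2% over all genes), none past the fold limit and a median of 0.035.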

How the data were processed

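The 8 genes and all companion lists were chosen with earlier results of these data known. The 6 RNA-seq libraries (3 control, 3 SMIP34) were grouped by the treatment named in their labels. The deposited values are estimated counts per gene, made by the authors and not normalized. Per the file headers, featureCounts 1.5.0-p1 assigned reads by strand to exons of the UCSC genes on hg19 at a mapping quality of at least 2, with multiply mapped or overlapping reads divided into fractions. Values of gene copies such as ACSM2A and ACSM2B are therefore uncertain. Between 6.31% and 7.43% of the values were not whole. The submitters' processing notes also name HISAT2, while the methods of the paper name tophat2 and HTSeq. The labels name kits of different makers without assigning them to libraries.

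After rounding to whole numbers, the filterByExpr function removed low genes and TMM factors scaled the libraries. edgeR 4.0.16 (R 4.3.3) gave the quasi-likelihood test between groups, and p-values were adjusted by the Benjamini-Hochberg method over the 13408 genes that remained. The thresholds were an adjusted p under 0.05 and, as the stricter rule, also an absolute log2 fold change over 0.5. The common biological coefficient of variation was 3.03%. Log2 CPM used a prior count of 2. Scripts were tested on simulated data. No set test was run. Named genes were the 8 genes and the transcripts antisense to or sharing sequence with them. Also named were up to 3 genes of each list with the largest fold changes past both thresholds and a mean of at least 1 CPM. The most abundant gene per kilobase of each list was named too. So were the 3 genes outside the 8 that lay nearest to ACMSD and to CDH16. Some measured genes of the lists are counted in them but are left unnamed, with no values of their own given, in text and figures. Any other gene was named after its values were seen. Motifs were matched to RefSeq promoters (GRCh38.p14), with the first promoter given for each listed gene and every promoter for the shares over the whole table. Promoters shown were placed on hg19 by their single exact match. Alternatives were DESeq2 1.42.0, limma 3.58.1 voom, other scalings, filters and rounding, offsets on gene length (loess span 0.3), the replicate number as a block, and each library left out in turn.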

Additional observations from a re-analysis of the deposited data

How the results depend on the processing

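The number of genes past both thresholds over all genes was 444 and fell to 278 with DESeq2, which also left out more genes before adjustment. It was 389 to 448 when each library was left out in turn. CDH16, ACMSD and ACSM2B passed both thresholds in all 15 alternatives, with log2 fold changes from -0.63 to -0.58, -1.86 to -1.55 and -1.74 to -1.50. Those of PAX2 lay between -0.45 and -0.36, and those of HNF4A between -0.58 and -0.26. PAX8 passed the adjusted p in 5 of 15. HNF4G, at -0.05, ranged from -0.11 to 0.020 over the fits without 1 library, and was 0.013 without control replicate 1. ACSM2A had no adjusted p in DESeq2 and was removed by a filter of at least 1 CPM in 3 libraries. Of 5 transcripts tested in the list of neighbours (ACSM2A, RRAD, CCNT2, PSD4 and TTPAL) 4 passed the adjusted p, beside 34.6% of all genes tested. With DESeq2 1 of the 5 passed, while RRAD and ACSM2A had no adjusted p there and CCNT2 did not pass. That list was chosen with earlier results known and leaves out other nearest genes. Of those, FAM178A, PDP2 and PDZD8 passed in edgeR, and CBWD2, HIF1AN, ACSM1, RAB11FIP2 and LOC100129961 did not. Nothing is read from the share of the list. In the list from tryptophan to NAD 5 genes passed, and 3 to 5 without 1 library. The cause of these changes was not tested. The numbers of the replicates did not pair the samples: deviations of same-numbered libraries from their group means correlated at -0.028, 0.033 and -0.011. With the replicate number as a block 453 genes passed both thresholds, and the PAX8 call was lost. Counts of 25 to 48 limit HNF4A, whose interval of the ratio runs from 0.537 to 1.06.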
